A study of Mus musculus with 9 samples.

Results

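Tfec, Mitf, Tfeb and Tfe3 are the 4 genes of the MiT family of transcription factors, and they are described here across blood monocytes of wild type, Ccl2-/- and Ccr2-/- mice. They were chosen by symbol in the probe annotation and by no cutoff on a measured value, but with earlier results of these data known. They were 4 of 19938 genes on the array, read by 5 of its 35512 transcript clusters (a cluster is the set of probes summarised into 1 value). The arrays were part of a study of how the chemokine CCL2 and its receptor CCR2 shape monocytes and mammary tumors. All animals were free of tumors, on the Balb/cJ background and aged 14 to 18 weeks, and none was treated. Wild type mice carried neither deletion, Ccl2-/- mice lacked the ligand and Ccr2-/- mice lacked the receptor, in both cases as a germline deletion present in marrow as well as in circulating cells. Each genotype had 3 arrays, and each array held RNA pooled from the blood of 5 mice. Cells were depleted of T, B, neutrophil, eosinophil and MHC II bearing cells on a magnetic column and then selected for CD11b, which NK cells also carry. The methods define monocytes as lacking NK1.1, an NK cell marker, and CD11c, while the antibodies listed for the column include neither.

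MiT factors are basic helix-loop-helix leucine zipper proteins that bind DNA as dimers with each other, and they recognise E-box sequences with the core CACGTG. Tfeb, Tfe3 and Mitf are held in the cytoplasm by mTORC1, which is recruited to the lysosome by the Rag GTPases, and on starvation they enter the nucleus and switch on a set of lysosomal and autophagy genes called the CLEAR network. Mitf is best known for driving the pigment cell lineage and, with Tfe3, the osteoclast, a bone resorbing cell of the monocyte lineage. Tfec is the member restricted mainly to macrophages, where its promoter is used by the myeloid factor PU.1 and is induced by interleukin-4.

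The promoter of Tfec is printed because Tfec changed most of the 4, with the ETS core GGAAGT, the letters bound by PU.1 and its relatives, in capitals. It is RefSeq sequence of GRCm38.p6, chr6:16898442-16898691, minus strand, the 250 bases before the transcript start.
Tfec: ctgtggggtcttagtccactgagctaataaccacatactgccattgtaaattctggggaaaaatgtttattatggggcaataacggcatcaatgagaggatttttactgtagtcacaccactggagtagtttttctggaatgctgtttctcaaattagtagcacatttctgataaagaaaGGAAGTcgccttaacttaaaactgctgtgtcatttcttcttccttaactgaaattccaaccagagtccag
The core began 70 bases before the start. Searched on both strands in windows of 300 bases (250 before and 50 after each start), GGAAGT was found at Tfec, Tfeb and Tfe3 and in none of the 3 windows of Mitf, while 26.5% of all 27025 genes with a promoter in the table held it. None of the 4 members held CACGTG in any window, and 8.09% of all genes did. Among genes of the CLEAR network the share was higher, at 9 of 18 lysosomal hydrolases, 6 of 10 lysosomal membrane proteins and 4 of 10 subunits of the V-ATPase, the proton pump that acidifies the lysosome. It was lowest among the autophagy genes of the network, at 2 of 12.

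The following 20-base sites are E-boxes of some CLEAR genes whose levels are given further on (those of Atp6v0b and Clcn7 and further sites of Lamp1 and Mcoln1 are not shown), with CACGTG in capitals, each read from RefSeq promoters of GRCm38.p6 in the sense of its gene. Gla, an alpha-galactosidase, has 2 sites, at chrX:134601187-134601206 and chrX:134601220-134601239, minus strand. Pip4p1, a lysosomal phosphoinositide phosphatase, has 1 at chr14:50930891-50930910, minus strand, and another that is not shown. Atp6v1a, the catalytic subunit of the V-ATPase, has its site at chr16:44139378-44139397, minus strand. The site of Lamp1 closest to its start is at chr8:13159139-13159158, plus strand, and that of Mcoln1, the lysosomal calcium channel that acts on MiT factors through calcineurin, is at chr8:3500467-3500486, plus strand. Ctsd, the protease cathepsin D, has its site at chr7:142387913-142387932, minus strand, and is shown because its level went the other way.
Gla, near: tctcggtCACGTGagcaact
Gla, far: gattgatCACGTGagcatct
Pip4p1: agcctgtCACGTGagcgggg
Atp6v1a: tttaaatCACGTGataggct
Lamp1: accacatCACGTGcggaacg
Mcoln1: ccccgctCACGTGaccgcgg
Ctsd: cgcgtctCACGTGacccgtt
Both Gla sites and those of Pip4p1, Atp6v1a, Mcoln1 and Ctsd carry the longer palindrome TCACGTGA, which contains the shorter motif and was present at 1.12% of all genes. Other CLEAR genes that held it, named here for that reason, were Atp6v0d1, Clcn7 and Ctsa, called lower in Ccr2-/- monocytes. Atp6v0e, Cln3, Nrbf2, Vps33a and Slc36a1 also held it and were not called there (limma adjusted p from 0.0911 to 0.875). A match in these letters is a description of the sequence and no measurement of binding.

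The values were linear intensities, taken to log2. Median intensity lay between 324.1 and 355.1 on 8 arrays and was 430.8 on Ccl2-/- replicate 1. The Ccr2 gene was lower in Ccr2-/- arrays, at 9.44 ± 0.03 against 13.09 ± 0.15 on the log2 scale (SD, n = 3 each), whereas the Ccl2 probes read 9.45 in Ccl2-/- and 8.98 in wild type and so checked nothing. Summed markers of several cell types differed by genotype. The summed intensity of 8 Ly-6Chi monocyte markers ranged from 34915 to 44436 in wild type, 25710.2 to 30161 in Ccl2-/- and 16238 to 18015 in Ccr2-/- arrays, and that of 21 NK cell markers ran the other way, from 94135 to 102466, 116749.6 to 139513 and 156154 to 160497. No NK marker was near 0, and the lowest of them in wild type, Klra8, had a mean of 8.23 on the log2 scale. In Ccr2-/- arrays all 8 Ly-6Chi markers were called lower and all 21 NK markers higher. Of 19 genes shared by monocytes and macrophages, 13 were called lower, with a median change of -0.41. Of 14 Ly-6Clo monocyte markers, 2 were called higher and none lower (4.91% and 8.38% of all genes), with a median change of 0.04. Their sum lay between 68119 and 79947 in wild type and between 74091 and 78293 in Ccr2-/- arrays, which overlap. Summed dendritic cell markers (12 genes) lay between 12713 and 16188 in wild type, 8876 and 11745 in Ccl2-/- and 8658 and 9623 in Ccr2-/- arrays, with 1 and 3 of them called lower in the mutants. Summed neutrophil markers (13 genes) lay between 8264 and 10749, 7216 and 8243, and 6772 and 7265, with none and 1 called lower. The wild type arrays overlapped neither mutant in either sum, nor in the Ly-6Chi sum. The summed dendritic cell and neutrophil markers thus lay lower in both mutants than in wild type, with few of their genes called. In Ccr2-/- arrays every Ly-6Chi and NK cell marker was called, by contrast. The neutrophil list as a whole moved little, with median changes of -0.08 in Ccl2-/- and -0.06 in Ccr2-/- arrays. Its 1 called gene was Csf3r, with a mean log2 level of 12.24 in wild type and 11.29 in Ccr2-/- arrays. Csf3r was the brightest of the 13, so it weighed most in their sum. The part of all these markers in the results was not tested. In such bulk samples, fewer cells of a type and less RNA per cell cannot be told apart.

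Tfec was lower in both mutants than in wild type, and about as far below again in Ccr2-/- as in Ccl2-/- monocytes. Its intensities in wild type were 1032, 741.5 and 827.9. They were 456.8, 491.0 and 498.7 in Ccl2-/- and 219.2, 257.0 and 260.4 in Ccr2-/- arrays. The 3 genotypes did not overlap at any array, and the order was wild type, Ccl2-/-, Ccr2-/-. Mean log2 level was 9.75 ± 0.24 in wild type monocytes, 8.91 ± 0.07 without Ccl2 and 7.94 ± 0.14 without Ccr2 (SD, n = 3). In Ccr2-/- monocytes Tfec fell to 28.5% of wild type, a log2 change of -1.81 (95% interval -2.10 to -1.52, limma adjusted p = 0.000342), and it was the 20th gene of all by p-value. In Ccl2-/- monocytes the change was -0.83 (-1.12 to -0.54), or 56.1% of wild type, and missed the threshold of 0.05 with a limma adjusted p of 0.0627. It was past the threshold without Ccl2-/- replicate 3 (adjusted p = 0.0341) and stood at -0.80 (adjusted p = 0.0910) without Ccl2-/- replicate 1, whose median intensity was high. Between the mutants, Tfec was 50.8% as high in Ccr2-/- as in Ccl2-/- (log2 change -0.98, adjusted p = 0.0141). That call was lost without Ccr2-/- replicate 1 (adjusted p = 0.0757) or Ccr2-/- replicate 2 (adjusted p = 0.0762), at changes of -0.90 and -1.01.

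Mitf followed the same order with a smaller change. Its main transcript cluster read 1001, 930.5 and 891.4 in wild type, 516.6, 563.9 and 766.3 in Ccl2-/- and 373.7, 378.0 and 408.0 in Ccr2-/- arrays. The groups did not overlap, although Ccl2-/- replicate 3 lay closer to wild type than the other two Ccl2-/- arrays. Mean log2 level was 9.88 ± 0.08, 9.24 ± 0.30 and 8.59 ± 0.07 in the same order (SD, n = 3). Mitf fell to 41.1% of wild type in Ccr2-/- monocytes (log2 change -1.28, 95% interval -1.60 to -0.97, limma adjusted p = 0.000860). The change in Ccl2-/- monocytes, -0.63 (-0.95 to -0.32) or 64.5% of wild type, had an adjusted p of 0.106 with all arrays and of 0.0137 without Ccl2-/- replicate 3, where it was -0.80. Ccr2-/- was below Ccl2-/- by a change of -0.65 (adjusted p = 0.0424), which was kept in 1 of 9 fits that each left out 1 array, the one without Ccl2-/- replicate 1 (adjusted p = 0.0161). In the other 8 the change lay between -0.70 and -0.48, and the adjusted p was as high as 0.177 without Ccr2-/- replicate 1. The second Mitf cluster was dim, between 14.86 and 34.76 on all 9 arrays, and its groups overlapped. Its changes of -0.47 in Ccl2-/- and -0.56 in Ccr2-/- had adjusted p of 0.609 and 0.413 in a limma fit of all clusters.

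Tfeb, a starvation-responsive regulator of lysosome number, changed least. It read 2348, 2418 and 2353 in wild type, 2295, 2226 and 2365 in Ccl2-/- and 1880, 2055 and 2064 in Ccr2-/- arrays. Wild type and Ccl2-/- arrays overlapped, and all Ccr2-/- arrays lay below both. The log2 change was -0.05 in Ccl2-/- (95% interval -0.20 to 0.10, limma adjusted p = 0.701) and -0.25 in Ccr2-/- monocytes (-0.40 to -0.10, adjusted p = 0.0370), the latter being 84.2% of wild type. The Ccr2-/- call rested on few arrays, since 7 of 9 fits that left out 1 array lost it, all except those without Ccl2-/- replicate 1 and Ccl2-/- replicate 3, and the adjusted p reached 0.138 without Ccr2-/- replicate 1. It was also lost with each array centred on its median (adjusted p = 0.229). Between the mutants the change was -0.20 (adjusted p = 0.140).

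Tfe3, the close relative of Tfeb with overlapping targets, read 4120, 4170 and 4072 in wild type and 3732, 3805 and 4178 in Ccl2-/- arrays. It read 2772, 2853 and 2852 in Ccr2-/- arrays, below every array of the other genotypes. In Ccl2-/- monocytes the change was -0.08 (95% interval -0.23 to 0.07, limma adjusted p = 0.560), with groups that overlapped. In Ccr2-/- monocytes Tfe3 fell to 68.6% of wild type (log2 change -0.54, -0.69 to -0.40, adjusted p = 0.00115), a call kept in all 9 fits that left out 1 array. The spread within Ccr2-/- arrays was small, with an SD of 0.02 on the log2 scale. Ccr2-/- was below Ccl2-/- by a change of -0.47 (adjusted p = 0.0159), a call lost without Ccr2-/- replicate 1 (adjusted p = 0.0783) or Ccr2-/- replicate 2 (adjusted p = 0.0771).

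**Figure D1:**
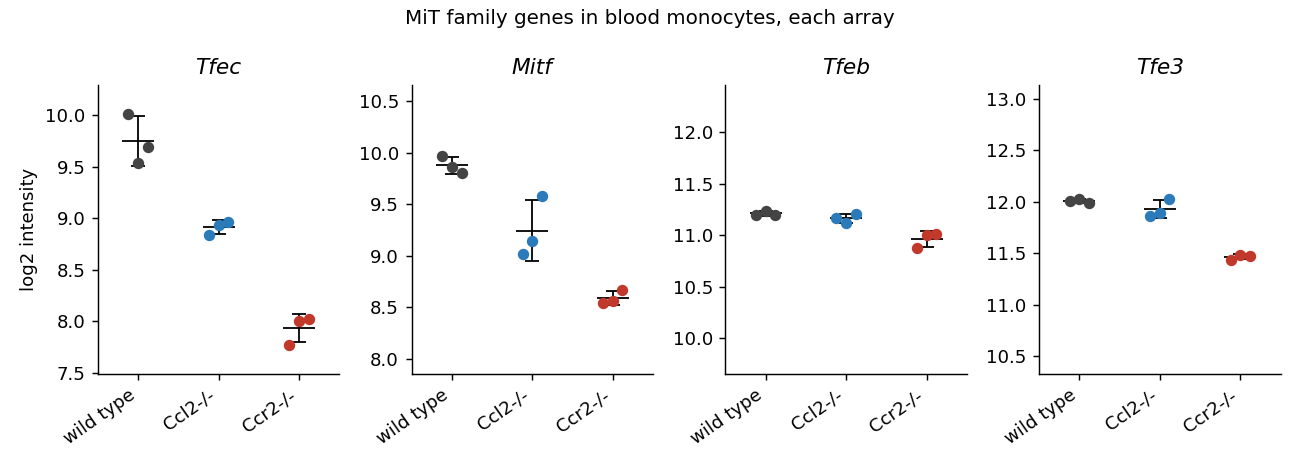
Log2 intensity of each MiT family gene (1 panel per gene, main transcript cluster) on each of the 9 arrays, with points for arrays, a long dash for the group mean and bars for 1 SD (n = 3). Every panel spans the same log2 range, so the steps can be compared, and Tfec steps down from 9.75 to 8.91 to 7.94 while Tfeb moves from 11.21 to 11.16 to 10.96.

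As a family, none of the 4 was called in Ccl2-/- monocytes, where 0.0853% of all genes were called lower, and 2 (Tfec and Mitf) had an unadjusted limma p under 0.05 and a lower level, as did 6.32% of all genes. The same 2 members had groups that did not overlap, a pattern seen in the lower direction at 9.31% of genes. In Ccr2-/- monocytes all 4 were called lower, against 8.38% of all genes, and all 4 had groups that did not overlap, against 18.1%. Between the mutants 3 of 4 were called lower, against 2.87%, and all 4 had groups that did not overlap, against 16%. The median change of all genes was 0.08, 0.01 and -0.08 in the 3 comparisons. The share of all calls that were lower depended on the scaling. It was 63.1% in Ccr2-/- against wild type (51.1% after quantile normalization). Between the mutants it was 79.7% (56% after quantile normalization and 28.4% after median centring). All 4 members kept a change below 0 under both scalings, but not every call. Tfeb in Ccr2-/- against wild type and Mitf between the mutants lost theirs under both. Tfe3 between the mutants lost its call under median centring. The comparisons with wild type share the wild type arrays, so that the changes of a gene in them are not independent. By the size limits that the methods state, applied to group means (a ratio over 1.2 and a difference over 100), Tfec and Mitf were past the limits in Ccl2-/- against wild type, and Tfec, Mitf and Tfe3 in the other two comparisons. Genes lower by these limits made up 3.76%, 9.21% and 9.16% of all genes.

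**Figure D2:**
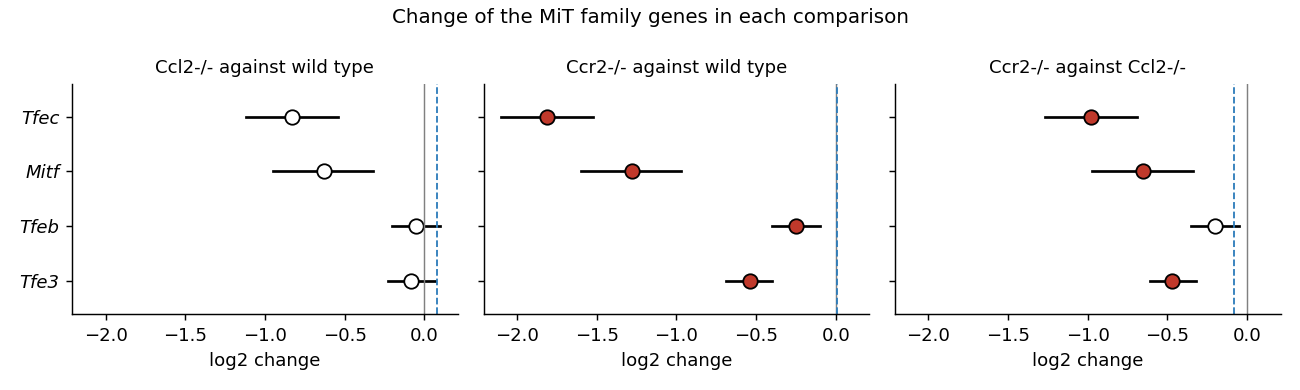
Log2 change of each member in the 3 comparisons (horizontal axis), with 95% intervals from limma as lines, filled points for an adjusted p under 0.05, a grey line at 0 and a dashed line at the median of all genes. In Ccr2-/- against wild type all 4 points are filled and run from -1.81 for Tfec to -0.25 for Tfeb.

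The size of the fall was compared between Tfec, which had the largest, and each other member, pairs that were picked with the changes known. The log2 level of Tfec minus that of Mitf lay between -0.33 and 0.04 on wild type arrays and between -0.77 and -0.56 on Ccr2-/- arrays, a shift of -0.53. In Ccl2-/- arrays it lay between -0.62 and -0.18, which overlaps both other genotypes. Against Tfeb and Tfe3 the shift was -1.56 and -1.27, with no overlap between wild type and Ccr2-/- arrays. For each of these 3 pairs the two-sided exact permutation test of 3 against 3 arrays gave p = 0.1 (0.1 after adjustment over the 3 pairs), the smallest that this design allows, so that no difference in the size of the change could pass 0.05.

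In Ccr2-/- monocytes the falls of Tfec and Mitf were larger than the mean fall of monocyte genes, that of Tfe3 was not distinguishable from it and that of Tfeb was smaller. This was measured by setting each member against the mean log2 level of the 19 pan-monocyte genes on the same array, a comparison chosen after the values were seen. Relative to that mean, Tfec lay at -2.98 to -2.55 in wild type, -3.54 to -3.40 in Ccl2-/- and -4.15 to -4.01 in Ccr2-/- arrays, and Mitf at -2.70 to -2.59, -3.34 to -2.92 and -3.45 to -3.38. Neither gene overlapped between wild type and either mutant. Refitted on this scale, which moves the median of all genes to 0.52 and calls 15374 genes, 372 of them lower, Tfec changed by -1.30 (limma adjusted p = 0.000502) and Mitf by -0.77 (adjusted p = 0.00127) in Ccr2-/- against wild type. Tfe3 changed by -0.03 (adjusted p = 0.717) on the same scale, and Tfeb turned to 0.26 (adjusted p = 0.0216), below the shift of all genes. In Ccl2-/- monocytes Tfec and Mitf changed by -0.71 and -0.51 on this scale (adjusted p = 0.115 and 0.186). For comparison, the median change of the 8 Ly-6Chi markers, before any such scaling, was -1.39 in Ccr2-/- monocytes, between the changes of Tfec and Mitf.

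The factors and receptors that act upstream in myeloid cells were mostly lower as well. Of 15 measured, 10 were called lower and 1 higher in Ccr2-/- monocytes, where 8.38% and 4.91% of all genes were called. Their median change was -0.37, near the -0.41 of the 19 pan-monocyte genes. Cebpa, which sets the granulocyte and monocyte lineage, fell to 0.421 of wild type (log2 change -1.25, limma adjusted p = 0.000534). Irf4, a factor of alternatively activated macrophages, fell to 0.321 (adjusted p = 0.00430), Il13ra1, the interleukin-13 receptor chain, to 0.688 (adjusted p = 0.00333) and Csf2rb, the shared receptor chain for GM-CSF, to 0.668 (adjusted p = 0.00427). Picked after the values were seen because they bear on Tfec, Spi1, which encodes PU.1, was at 0.812 of wild type (adjusted p = 0.0310), while Il4ra and Stat6, the interleukin-4 receptor and its signal transducer, were at 0.943 and 0.909 (adjusted p = 0.699 and 0.186). The 11 calls of this list became 6 without wild type replicate 1, wild type replicate 3 or Ccr2-/- replicate 1, 7 without Ccr2-/- replicate 2 and 4 with median centring. They became 7 under the pan-monocyte scaling, which called 15374 of all genes. None of the 15 was called in Ccl2-/- monocytes, where 4 were lower and 1 higher at an unadjusted p under 0.05. Interleukin-4 responsive macrophage genes split. Of 19, 8 were called lower and 2 higher in Ccr2-/- monocytes, and none in Ccl2-/- (7 lower and 4 higher at an unadjusted p under 0.05). The lectins Clec10a and Mgl2 fell to 0.254 (adjusted p = 0.00103) and 0.568 (adjusted p = 0.00107) and the G-CSF receptor Csf3r, which is also one of the neutrophil markers, to 0.519 (adjusted p = 0.000653), whereas Cish, a feedback inhibitor of cytokine signaling, rose to 1.89 (adjusted p = 0.00101).

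Genes of the mTORC1 and Rag machinery, which decides where MiT proteins sit in the cell, had small changes. In Ccr2-/- monocytes 7 of 26 were called lower and 1 higher (8.38% and 4.91% of all genes), with a median change of -0.14. Rragb, a Rag GTPase, rose to 1.48 of wild type (limma adjusted p = 0.00466). Fnip2, the partner of folliculin, fell to 0.745 (adjusted p = 0.0173), Lamtor2, a Ragulator subunit, to 0.796 (adjusted p = 0.0190) and Mcoln1 to 0.831 (adjusted p = 0.0210). No gene of this list was called in Ccl2-/- monocytes, where 4 were lower and 1 higher at an unadjusted p under 0.05. Of 17 related helix-loop-helix zipper factors, which bind the same E-box, 2 were called lower and 1 higher in Ccr2-/- monocytes, shares close to the 8.38% and 4.91% of all genes. None was called in Ccl2-/- monocytes (1 lower and 3 higher at an unadjusted p under 0.05). Usf1 and Usf2 fell to 0.619 (adjusted p = 0.000772) and 0.788 (adjusted p = 0.0143), and Myc rose to 1.52 (adjusted p = 0.00163). The 8 calls of the mTORC1 list ranged from 1 to 10 over fits that left out 1 array, with 1 without Ccr2-/- replicate 2, 2 without Ccr2-/- replicate 1 or any of the wild type arrays, 3 without Ccr2-/- replicate 3 and 5 without Ccl2-/- replicate 2. They were 4 with median centring or the replicate block and 14 with an intensity trend.

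Lysosomal targets of the family were lower in Ccr2-/- monocytes. Over the 4 CLEAR lists together, 34 of 64 measured genes were called lower and 1 higher, against 8.38% and 4.91% of all genes, 58 had a change below 0, and the median change was -0.26. Among the hydrolases 14 of 21 were called lower and 1 higher (median -0.35). These 15 calls became 9 without Ccr2-/- replicate 1 and 8 with median centring. Scpep1, a serine carboxypeptidase, fell to 0.522 of wild type (limma adjusted p = 0.000653), Hexa, the alpha chain of beta-hexosaminidase, to 0.579 (adjusted p = 0.000830), Gla to 0.584 (adjusted p = 0.00163) and Gusb, beta-glucuronidase, to 0.690 (adjusted p = 0.00145). Ctsd was the hydrolase that rose, to 1.34 (adjusted p = 0.0126). It was picked after its value was seen.

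Of 12 lysosomal membrane genes, 8 were called lower and none higher (median -0.46). Pip4p1 fell to 0.677 of wild type (limma adjusted p = 0.000984), Lamp1, the major membrane glycoprotein, to 0.710 (adjusted p = 0.00203), Hgsnat, an acetyltransferase of heparan sulfate breakdown, to 0.711 (adjusted p = 0.00289) and Scarb2, the receptor that carries glucocerebrosidase to the lysosome, to 0.715 (adjusted p = 0.00248). Of 15 V-ATPase subunits, 9 were called lower and none higher (median -0.34), led by Atp6v0a1 at 0.533 (adjusted p = 0.00132), then Atp6v1a at 0.696 (adjusted p = 0.00255), Atp6v0b at 0.708 (adjusted p = 0.00382) and the accessory subunit Atp6ap2 at 0.713 (adjusted p = 0.00604). With median centring 3 of the 15 were called. Autophagy genes changed less, with 3 of 16 called lower (Map1lc3b at 0.828, Uvrag at 0.807 and Vps35 at 0.802, adjusted p = 0.0149, 0.0158 and 0.0409) and a median of -0.14. That count ranged from 0 to 4 over fits that left out 1 array and was 0 with median centring and 1 with the replicate block. It was 0 without wild type replicate 2, wild type replicate 3 or Ccr2-/- replicate 2, and 1 without wild type replicate 1 or Ccr2-/- replicate 1.

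In Ccl2-/- monocytes none of the 64 CLEAR genes was called by limma, while 22 were lower and none higher at an unadjusted p under 0.05, against 6.32% of all genes lower at that limit. Their median change was -0.11. Between the mutants 8 of the 64 were called lower, against 2.87% of all genes, and none higher. The 19 pan-monocyte genes had a larger median fall in Ccr2-/- monocytes, -0.41, than the 64 CLEAR genes. Set against the mean of those genes, the median change of the 64 was 0.25 in Ccr2-/- and 0.01 in Ccl2-/- monocytes. Both lay below the median of all genes on that scale, which was 0.52 and 0.21. Counts were also taken by E-box, with no test of the difference. Of 50 with a promoter in the table, 12 of 21 with CACGTG and 15 of 29 without were called lower in Ccr2-/- monocytes, at medians of -0.27 and -0.25.

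Targets of MiT factors in other lineages were mostly not called lower. Among 14 osteoclast genes, 3 were called higher and 1 lower in Ccr2-/- monocytes, against 4.91% and 8.38% of all genes. With each array centred on its median, 2 of the 14 were called. None was called in Ccl2-/- (1 lower and 3 higher at an unadjusted p under 0.05). Car2, the carbonic anhydrase of bone resorption, rose to 1.82 of wild type (limma adjusted p = 0.00139), Acp5, the tartrate-resistant phosphatase, to 1.41 (adjusted p = 0.0113) and Nfatc1, the master factor of the osteoclast, to 1.25 (adjusted p = 0.0102). The chloride channel gene Clcn7, which is also a CLEAR gene, fell to 0.736 (adjusted p = 0.00627). No pigment cell gene of 10 was called by limma in either mutant, and at an unadjusted p under 0.05 there was none in Ccr2-/- and 1, higher, in Ccl2-/- monocytes. Over the 10 lists, 59 of 159 genes were called lower and 8 higher in Ccr2-/- monocytes, against 8.38% and 4.91% of all genes. The share called higher was thus close to that of all genes. None of the 159 was called in Ccl2-/-. At an unadjusted p under 0.05, 38 were lower there and 12 higher, against 6.32% of all genes lower.

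**Figure D3:**
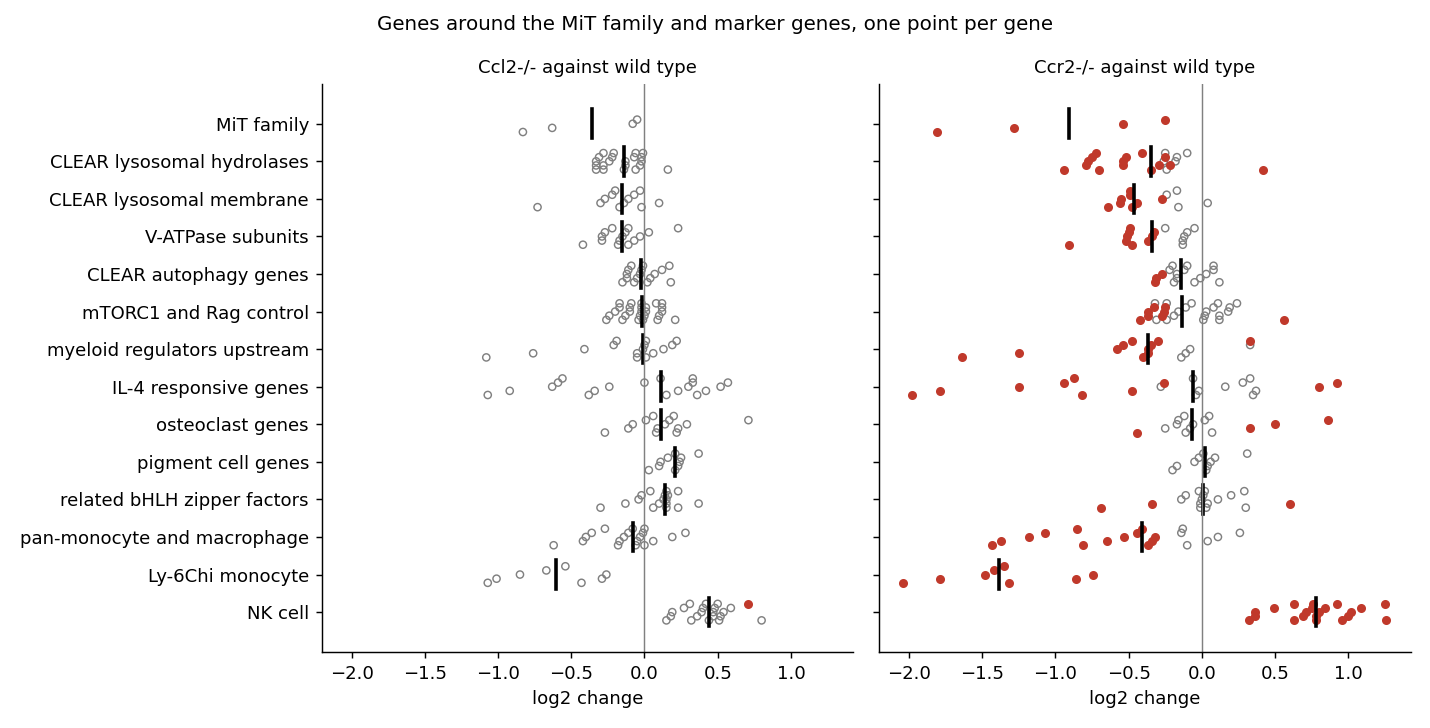
Log2 change of each measured gene (horizontal axis, 1 point per gene) in the 2 comparisons with wild type, by list (vertical axis), with filled points for a limma adjusted p under 0.05 and a black bar at each list's median. In Ccr2-/- monocytes the lysosomal and V-ATPase medians (-0.35, -0.46 and -0.34) lie near that of the pan-monocyte genes (-0.41), and the Ly-6Chi and NK cell markers lie at either end (-1.39 and 0.78).

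Genes whose pattern over the 9 arrays was closest to each member were found by the root mean square difference in log2 level, after subtracting each gene's wild type mean. Likeness to the member in every genotype is thus fixed by the choice. The levels and calls of these genes are no separate evidence. Nearest to Tfec were Cd177, a surface protein best known from neutrophils (difference 0.144), the lipid transporter gene Abca9 (0.156), the collagenase Mmp8 (0.168), the creatine synthesis enzyme Gatm (0.177) and Cd300lg (0.180). These genes stood at 0.243 to 0.332 of wild type in Ccr2-/- monocytes, and Cd177 and Abca9 were also called in Ccl2-/- (0.583 and 0.597 of wild type, limma adjusted p = 0.0413 each). Mmp8 is one of the 8 Ly-6Chi markers above. Mitf was the 63rd gene by closeness to Tfec, and Tfec was the 323rd by closeness to Mitf.

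Nearest to Mitf were Met, the receptor for hepatocyte growth factor (difference 0.078), Slc36a4, an amino acid transporter (0.10), Gm9733 (0.103), Cpq, a carboxypeptidase (0.103), and Apba1 (0.108). SDs in their Ccl2-/- arrays ran from 0.16 for Cpq to 0.42 for Apba1, against 0.30 for Mitf, and these genes were chosen for matching Mitf array by array. Tfeb was closest to Fis1, a mitochondrial fission factor, and to Sppl2a, Abhd1, Nxt2 and Psap, the precursor of the saposins that activate lysosomal hydrolases and itself a CLEAR gene, at differences of 0.020 to 0.037. Tfe3 was closest to Tom1, Il6ra, Ly86, Gpr35 and Dhrs4, at 0.031 to 0.049. As genes chosen for likeness to Tfe3, all were called lower in Ccr2-/- monocytes (0.675 to 0.708 of wild type) and none in Ccl2-/-.

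**Figure D4:**
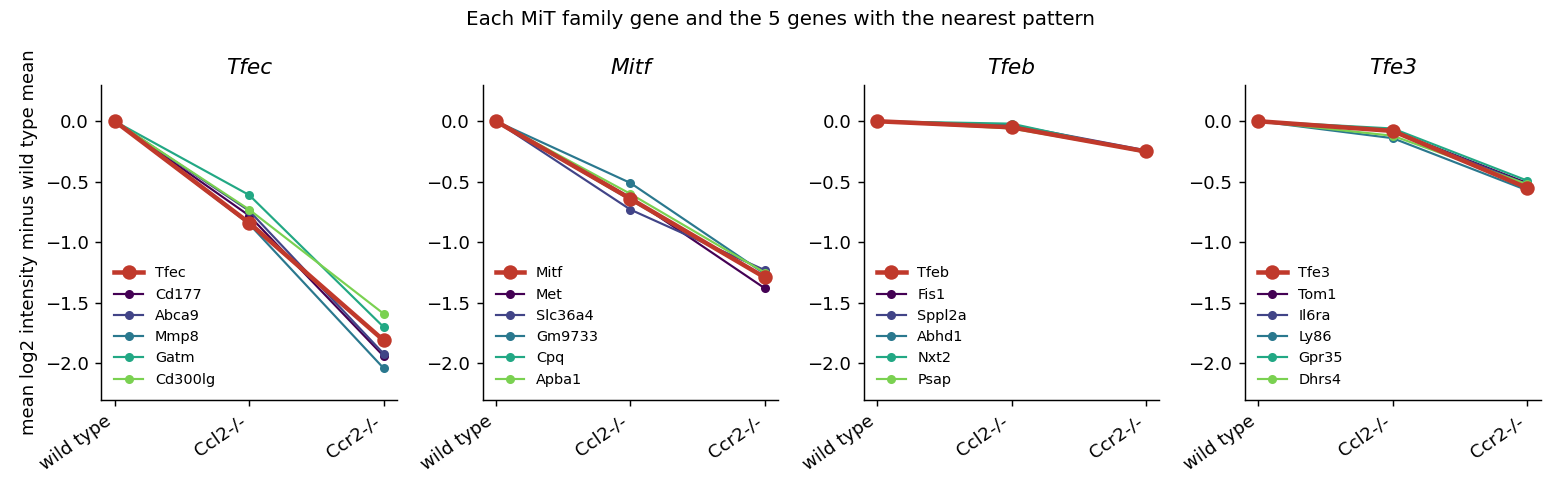
Mean log2 intensity minus the wild type mean (vertical axis) in the 3 genotypes for each member (thick red line) and its 5 nearest genes (thin lines), n = 3 arrays per point. Tfec and its neighbours step down in both mutants, while Tfeb and Tfe3 and theirs stay close to 0 in Ccl2-/- and are lower in Ccr2-/- monocytes. The neighbours were chosen for this likeness.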

How the data were processed

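Blood monocytes of 3 genotypes were profiled on the Affymetrix Mouse Gene 1.0 ST array, with 9 arrays in all. The deposited values are linear intensities per transcript cluster, which the authors made with dChip, and the normalization and its settings are not given in the sources used here. Groups came from the sample labels. Of 35512 clusters, 21789 had 1 symbol, 1621 several and 12102 none. Each of 19938 genes was read from its cluster with the highest mean log2 intensity, after setting 19 values below 1 to 1. Genotype means were compared in limma 3.58.1 (R 4.3.3) on all 9 arrays with p-values adjusted by Benjamini-Hochberg across the 19938 genes, and a gene was called at an adjusted p under 0.05. The scripts were tested on simulated data. Summaries used Python 3.11.15 with pandas 2.3.3 and scipy 1.17.1.

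The labels call the arrays biological replicates, 3 per genotype, which limits the precision. Named were the 4 members, the 5 genes nearest to each, the 4 genes with the smallest p in Ccr2-/- in each of 10 pathway lists, and Ccr2 and Ccl2, with other names marked in the text. Of 12 marker lists, counts or sums are given for Ly-6Chi and Ly-6Clo monocytes, pan-monocyte genes, NK cells, dendritic cells and neutrophils. The other marker lists are not reported here. The members, lists and tests were chosen with earlier results of these data known, and Tfec and Mitf were among the genes that the study itself displayed from these arrays. Alternatives were quantile normalization, median centring, a filter on a mean over 100, an intensity trend, an offset of 50, the mean of clusters, all clusters in place of genes, fits of 6 arrays, a replicate block and leaving out each array. A scaling to the 19 pan-monocyte genes was added after seeing the data. Sequences came from RefSeq tables of GRCm38.p6.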

Additional observations from a re-analysis of the deposited data

Results flagged for a closer look

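Ccl2-/- and Ccr2-/- monocytes differed from each other in 3 of the 4 members by limma on all 9 arrays, which is a direct test of whether both deletions changed the gene by the same amount. The log2 change in Ccr2-/- against Ccl2-/- was -0.98 for Tfec, with means of 7.94 and 8.91. It was -0.65 for Mitf, with means of 8.59 and 9.24, and -0.47 for Tfe3, with means of 11.46 and 11.93. In all 3 genes the 3 Ccr2-/- arrays lay below the 3 Ccl2-/- arrays. NK cell markers also differed in these arrays, with all 21 measured having a higher mean in Ccr2-/- than in Ccl2-/- and 3 called higher. Of 8 Ly-6Chi markers, 5 were called lower. Of all 19938 genes, 146 were called higher and 572 lower (2.87%) in this comparison. The part of these markers in the differences of the 3 members was not tested.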

How the results depend on the processing

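Over the alternatives tried, the falls of Tfec and Mitf in Ccr2-/- against wild type kept their direction and their call. The change of Tfe3 there kept both under every alternative except the scaling to pan-monocyte genes (-0.03). Tfeb lost its call at -0.21 under quantile normalization and at -0.25 under median centring, with all clusters in place of genes and with the replicate block (adjusted p = 0.0874), and it turned to 0.26 under the pan-monocyte scaling. In Ccl2-/- against wild type, Tfec gained the call at -0.83 with an intensity trend (adjusted p = 0.0160) and at -0.77 with an offset of 50 (adjusted p = 0.0408), and Mitf at -0.63 with the trend (adjusted p = 0.0490), so that 2 members and 1 member were called. Tfeb and Tfe3, not called there, turned to 0.08 and 0.04 under the pan-monocyte scaling. Of the pathway genes 2 were called with the trend and 2 with the offset, against 0. In Ccr2-/- against wild type 67 pathway genes were called, 59 of them lower, against 37 under median centring. Under the pan-monocyte scaling 103 were called, but so were 15374 of all 19938 genes, 15002 of them higher. On that scale the median change of the 159 pathway genes was 0.34, against 0.52 for all genes.

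In Ccr2-/- against Ccl2-/-, Mitf lost its call at -0.53 under quantile normalization, -0.54 under median centring, -0.37 with the mean of clusters, -0.26 under the pan-monocyte scaling, and at -0.65 with 6 arrays, with all clusters or with the replicate block. Tfe3 lost it at -0.35 under median centring, -0.08 under the pan-monocyte scaling, and at -0.47 with 6 arrays or with the replicate block. Tfeb, not called, turned to 0.19 under the pan-monocyte scaling. Only 1 member was then called under median centring, 6 arrays, the block or the pan-monocyte scaling. The 20 pathway genes called became 11 under quantile normalization, 4 under median centring, 46 with the trend, 0 with 6 arrays and 2 with the block. Under the pan-monocyte scaling they became 53, but 6665 of all genes were called there, 6546 of them higher. The replicate block changed no other call of a member. Same-numbered arrays of different genotypes did not deviate together in every pair (correlations from -0.18 to 0.562), so the numbers were not taken as pairs.

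With each array left out in turn, the change in Ccl2-/- against wild type ranged from -0.94 to -0.70 for Tfec and from -0.80 to -0.52 for Mitf, with 0 to 2 members and 0 to 7 pathway genes called, all above 0 coming without Ccl2-/- replicate 3. In Ccr2-/- against wild type Tfeb ranged from -0.27 to -0.20, and 43 to 77 pathway genes were called. Between the mutants Tfec ranged from -1.02 to -0.90, Mitf from -0.77 to -0.48 and Tfe3 from -0.50 to -0.42, with 0 to 3 members and 0 to 29 pathway genes called. The cause of these shifts was not tested. The number of arrays limits the precision, and the 95% intervals of Tfeb and Tfe3 in Ccl2-/- monocytes leave changes as low as -0.20 and -0.23 undetected. The call of Tfec between the mutants was lost only without Ccr2-/- replicate 1 or Ccr2-/- replicate 2, among all alternatives run.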
